A study of Mus musculus with 4 samples.

Results

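The genes described here encode 10 neuropeptide precursors: *Npvf*, *Vip*, *Sst*, *Tac1*, *Npy*, *Penk*, *Cck*, *Adcyap1*, *Gal* and *Crh*. They are 10 of the 24322 gene symbols listed in the RNA-seq files. *Npvf* and *Vip* were chosen by their measured values in the comparison of control with *Rax* iCKO cells, and the other 8 were set beside them as neuropeptide precursors so that it could be asked whether the rise of *Npvf* was particular to it.

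The libraries were made from retinal cells of 4 mice, sorted by FACS for the reporter mTFP, with 1 library from each mouse number. *Rax* is a homeobox gene of retinal progenitors that stays on in Müller glial cells, the radial glia of the retina. The 2 control mice (Raxflox/WT, mice 7984 and 3911) carried *Rax* intact on 1 allele, whereas both alleles were floxed in the 2 *Rax* iCKO mice (Raxflox/flox, mice 7983 and 3914). All 4 also carried Rlbp1-CreERT2, in which a promoter of the glial gene *Rlbp1* drives a tamoxifen-dependent Cre, and R26-CAG-LoxP-mTFP1, a Cre-switched teal fluorescent reporter. Tamoxifen was given to all of them at P4 and the retinas were taken at P14, so the controls too had been exposed to Cre and to tamoxifen, and had lost 1 *Rax* allele in recombined cells. The promoter also drives recombination in the retinal pigment epithelium. The labels give 129S6 as the background.

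Neuropeptides are cut from longer precursor proteins inside secretory granules by prohormone convertases and carboxypeptidases, and many are then amidated. After release they act on G protein-coupled receptors. In the retina most are known from subsets of amacrine cells, where they serve as slow modulators beside GABA or glycine. *Npvf* encodes the RFamide-related peptides, known mainly from neurons of the dorsomedial hypothalamus.

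The promoters of the 4 members that were higher in both *Rax* iCKO libraries are shown first, because the control and *Rax* iCKO cells differ in a DNA-binding protein. The study names the letters TAATT as the predicted Rax-binding sequence. In its reporter assay Rax activated a *Socs3* promoter fragment that holds such sites, and not a fragment with the sites mutated. That is activation by Rax, whereas the 4 genes shown here were higher in *Rax* iCKO cells. Each line holds the 250 bases before a RefSeq start site in GRCm38.p6, written 5′ to 3′ along the gene's strand. For *Vip* this site lies inside the listed span of the gene, chr10:5639193-5647617, so the window ends within it. Capitals mark TAATT and its reverse complement AATTA, with overlapping matches run together. The windows are chr6:50654446-50654695 (minus strand) for *Npvf*, chr10:5638968-5639217 (plus) for *Vip*, chr6:49822460-49822709 (plus) for *Npy* and chr19:3414545-3414794 (minus) for *Gal*.
Npvf: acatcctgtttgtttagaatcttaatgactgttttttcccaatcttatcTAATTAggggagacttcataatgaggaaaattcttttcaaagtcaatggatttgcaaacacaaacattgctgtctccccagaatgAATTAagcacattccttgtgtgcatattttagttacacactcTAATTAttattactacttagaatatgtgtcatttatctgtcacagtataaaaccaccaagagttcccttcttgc
Vip: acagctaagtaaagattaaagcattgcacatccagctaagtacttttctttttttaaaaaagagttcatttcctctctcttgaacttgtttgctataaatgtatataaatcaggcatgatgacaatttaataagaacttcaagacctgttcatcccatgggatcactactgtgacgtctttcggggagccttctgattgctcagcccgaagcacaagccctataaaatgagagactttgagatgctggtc
Npy: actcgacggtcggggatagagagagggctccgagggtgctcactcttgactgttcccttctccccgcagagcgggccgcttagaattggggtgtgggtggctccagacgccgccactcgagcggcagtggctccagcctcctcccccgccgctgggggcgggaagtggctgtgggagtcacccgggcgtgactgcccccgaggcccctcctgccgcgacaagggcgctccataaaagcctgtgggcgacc
Gal: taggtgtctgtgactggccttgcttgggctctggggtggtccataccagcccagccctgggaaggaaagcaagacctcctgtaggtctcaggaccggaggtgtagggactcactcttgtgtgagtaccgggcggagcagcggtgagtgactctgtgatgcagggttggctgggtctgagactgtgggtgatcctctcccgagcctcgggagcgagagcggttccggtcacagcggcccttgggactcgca

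The *Npvf* window held 5 matches in 3 stretches, 2 on the given strand and 3 on the other. No match was found in the windows of *Vip*, *Npy*, *Gal*, *Sst* or *Cck*. The *Sst* window and both *Adcyap1* windows lie inside the listed spans of these genes. The window of *Tac1* held 2 overlapping matches, and of the 2 start sites of *Adcyap1* 1 had 1 match and 1 had none. The promoters of *Penk* and *Crh* were not analysed here. At least 1 match occurred in 25% of 32851 mouse promoter windows of this length, at least 2 in 9.43% and at least 5 in 0.560%. The *Npvf* window is poor in G and C, at 33.2% against a median of 52.4%, and among the 1155 windows with no more G and C at least 5 matches occurred in 9%. These are letter matches, and binding was not measured.

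*Npvf* was close to undetected in control cells and abundant in both *Rax* iCKO libraries. Its level, in FPKM (fragments divided by exon length and by the mapped fragments of the library, a scale that takes out length and so allows levels of different genes to be compared), was 0 in control mouse 7984, 0.590 in control mouse 3911, 67.8 in *Rax* iCKO mouse 7983 and 230.0 in *Rax* iCKO mouse 3914. Both *Rax* iCKO libraries lay far above both controls, and they also lay far from each other. The means were 0.295 ± 0.417 (SD, n = 2) and 149 ± 115 (SD, n = 2). On the log2(FPKM + 1) scale the difference of means was 6.64, at place 2 among the rises of the 12363 genes in the fit, which took genes averaging 1 FPKM or more over the 4 libraries. No ratio is given, because 1 control was at 0, and no test, because the gene was chosen for this difference. By the estimated depth and the single annotated transcript of 812 bases, these levels stand for about 0, 3, 391 and 1310 reads. Ranked by FPKM among all symbols, *Npvf* stood at place 16181 and 13002 in the controls and at place 1496 and 413 in the *Rax* iCKO libraries. Place 16181 is shared by all 8142 symbols at 0 in control mouse 7984. In bulk samples such as these, fewer cells of a type and less RNA per cell cannot be told apart, and the same holds for more.

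*Vip*, which encodes vasoactive intestinal peptide, a product of a class of amacrine cells, was at the edge of detection. It was listed at 0 in both controls, at 0.399 FPKM in *Rax* iCKO mouse 7983 and at 0.486 FPKM in *Rax* iCKO mouse 3914. The *Rax* iCKO values correspond to at least 5 and 6 reads by the steps between low FPKM values. The groups did not overlap, but no fold is given against values of 0, and *Vip* fell under the filter of the fit. Like *Npvf*, it was chosen by this difference, so its values are a description.

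**Figure D1:**
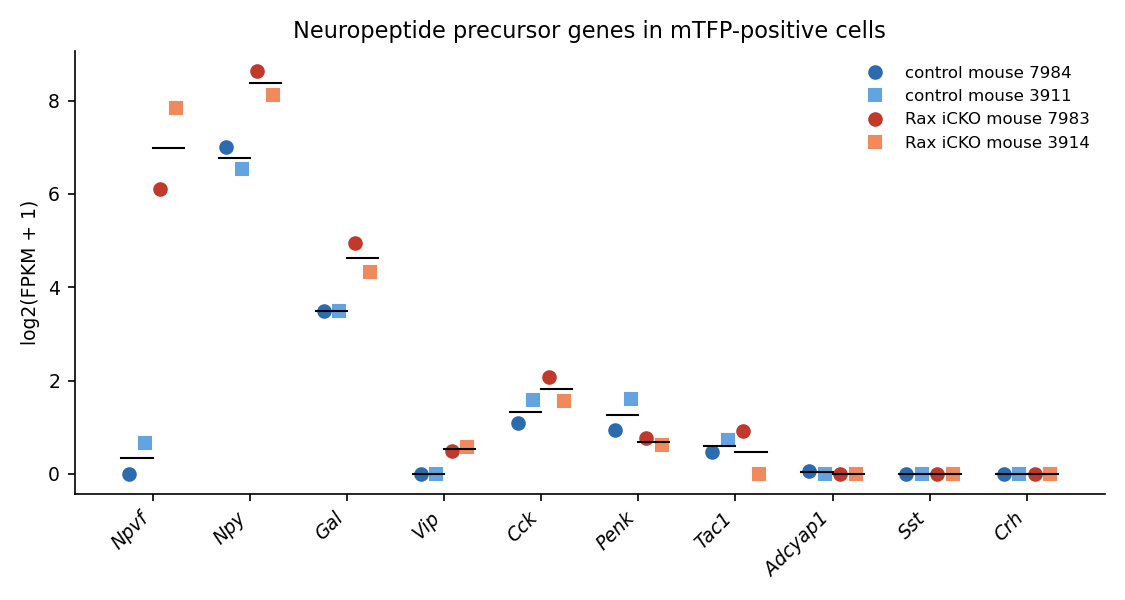
FPKM of the 10 precursor genes in each of the 4 libraries, on an axis of log2(FPKM + 1), with controls in blue, *Rax* iCKO libraries in red and orange, and black lines at the group means. *Npvf* runs from 0 in control mouse 7984 to 230.0 FPKM in *Rax* iCKO mouse 3914, *Npy* is the highest gene in all 4 libraries, and *Sst* and *Crh* are at 0 throughout.

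For *Npy* and *Gal* too, each *Rax* iCKO library lay above both controls, from a base that was already above 0. *Npy* encodes neuropeptide Y, a peptide of amacrine cells and of many brain neurons. Its FPKM was 127.6 in control mouse 7984, 91.3 in control mouse 3911, 398 in *Rax* iCKO mouse 7983 and 277 in *Rax* iCKO mouse 3914, with means of 109 ± 25.7 and 337 ± 85.7 (SD, n = 2 each). *Npy* was thus the most abundant of the 10 genes in every library, and the mean of the *Rax* iCKO libraries was 3.08 times that of the controls. The log2 fold change in limma was 1.61 ± 0.30 (SE), with an unadjusted limma p of 0.00157 and an adjusted p of 0.9999 over all 12363 genes tested. *Npy* held place 30 among the rises of those genes.

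*Gal* encodes galanin, a peptide of hypothalamic and other neurons. It stood at 10.3 FPKM in control mouse 7984 and 10.2 FPKM in control mouse 3911. In the *Rax* iCKO libraries it stood at 29.8 FPKM (mouse 7983) and 19.0 FPKM (mouse 3914), above both controls. The means were 10.2 ± 0.0578 and 24.4 ± 7.65 (SD, n = 2 each), a ratio of 2.39. The log2 fold change was 1.15 ± 0.27 (SE), the unadjusted limma p was 0.00567 and the adjusted p was 0.9999. Neither *Npy* nor *Gal* passed the adjusted threshold, and with 2 mice a group an exact two-sided permutation test cannot go below 0.333.

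*Penk* was the member that lay lower in both *Rax* iCKO libraries. It encodes proenkephalin, the source of the enkephalins. Its FPKM was 0.908 in control mouse 7984, 2.05 in control mouse 3911, 0.6996 in *Rax* iCKO mouse 7983 and 0.532 in *Rax* iCKO mouse 3914, which is about 14, 24, 8 and 6 reads. The groups did not overlap, but the nearest values of both groups were close, and the log2 fold change of -0.58 ± 0.35 (SE) had an adjusted limma p of 0.9999. The ratio of means was 0.417. Without control mouse 3911 the mean fell under the filter of the fit, and the ratio no longer passed 2-fold.

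*Cck* and *Tac1* overlapped between the groups. From here on, paired values follow the order of control mice 7984 and 3911, then *Rax* iCKO mice 7983 and 3914. *Cck*, the cholecystokinin gene, read 1.12 and 1.98 FPKM in control mice 7984 and 3911 and 3.24 and 1.97 FPKM in *Rax* iCKO mice 7983 and 3914, with a log2 fold change of 0.50 ± 0.34 (SE) and an adjusted limma p of 0.9999. *Tac1*, which encodes substance P and neurokinin A, read 0.377 and 0.647 FPKM in the controls and 0.890 and 0 FPKM in *Rax* iCKO mice 7983 and 3914, so that 1 *Rax* iCKO library was the highest and the other the lowest. *Adcyap1*, the gene of the peptide PACAP, was above 0 in control mouse 7984 alone, at 0.0415 FPKM. *Sst* and *Crh*, which encode somatostatin and corticotropin-releasing hormone, were listed at 0 in all 4 libraries. A single read would have given *Sst* 0.151 to 0.207 FPKM and *Crh* 0.0702 to 0.0963 FPKM, so levels around these were not detectable at this depth.

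The order of the levels changed between the groups. In control cells it ran from *Npy* over *Gal* to *Cck* and *Penk*, whose ranges overlapped, and then to *Tac1* and *Npvf*, whose ranges also overlapped. In *Rax* iCKO cells *Npvf* stood between *Npy* and *Gal*, with no overlap of its 2 values with theirs, *Penk* lay above *Vip*, and the values of *Tac1* spanned both. Summed over the 10 genes, the FPKM was 140 in control mouse 7984, 107 in control mouse 3911, 501 in *Rax* iCKO mouse 7983 and 529 in *Rax* iCKO mouse 3914. *Npy* made up 90.9% and 85.5% of the sum in the controls, and 79.5% and 52.3% in the *Rax* iCKO libraries. The share of *Npvf* went from 0 and 0.552% to 13.5% and 43.5%. The 10 genes together still held only 0.0173% to 0.102% of the FPKM of a library.

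**Figure D2:**
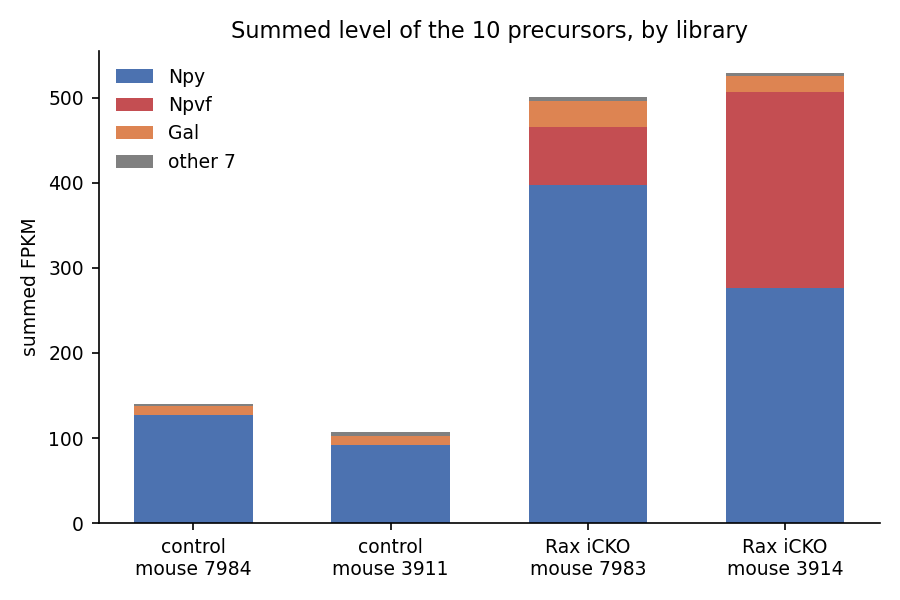
Summed FPKM of the 10 precursor genes in each of the 4 libraries, as bars divided into *Npy*, *Npvf*, *Gal* and the other 7. The controls sum to 140 and 107 FPKM and are mostly *Npy*, and the *Rax* iCKO libraries sum to 501 and 529 FPKM, with a *Npvf* share of 13.5% and 43.5%.

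Set against the other members, the rise of *Npvf* was the largest in both runs of mouse numbers (7983 against 7984, and 3914 against 3911). Its log2(FPKM + 1) difference was 6.10 in the first run and 7.18 in the second. The corresponding differences were 1.63 and 1.59 for *Npy*, 1.45 and 0.84 for *Gal*, and -0.17 and -0.99 for *Penk*. *Npvf* exceeded *Npy* by 4.47 and 5.59, *Gal* by 4.65 and 6.35, *Cck* by 5.11 and 7.19 and *Penk* by 6.27 and 8.18 on this scale. The differences between members were not tested, since *Npvf* was chosen for the size of its rise. *Npvf* was highest in mouse 3914, whereas *Npy*, *Gal* and *Cck* were highest in mouse 7983.

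Counted over the members, 8 of 10 were above 0 in at least 1 library and 5 averaged 1 FPKM or more and were in the fit (*Npvf*, *Npy*, *Gal*, *Cck* and *Penk*). *Npvf* passed that filter only through the *Rax* iCKO libraries and *Penk* only through the controls. Both *Rax* iCKO libraries lay above both controls with a ratio of means over 2-fold in 4 members (*Npvf*, *Vip*, *Npy* and *Gal*), against a background of 2.68% of the 17865 genes above 0 in any library. The reverse held for 1 member, *Penk*, against a background of 4.07%. Among genes in the fit the counts were 3 higher, against 0.599% of all genes, and 1 lower, against 0.704%. *Npvf* and *Vip* were chosen by this contrast, so nothing is read from their part in the counts. Without them 2 of 8 members were higher (*Npy* and *Gal*, background 2.68%). *Sst* and *Crh*, also among the 8, were at 0 throughout and could not be counted. Leaving out 1 mouse in turn gave 3 to 5 higher and 1 to 2 lower members. With 1 library in a group non-overlap is easier to reach, so the shares above do not apply to these counts. *Gal* dropped out without *Rax* iCKO mouse 7983, where *Tac1* was added to the lower ones, *Cck* was added without control mouse 3911 or *Rax* iCKO mouse 3914, and without control mouse 3911 the lower member was *Adcyap1* in place of *Penk*. *Npvf* aside, none of the 4 members in the limma fit had an adjusted p under 0.05 (background 0.00809% higher and 0.0162% lower), and at an unadjusted p under 0.05 there were 2 higher (*Npy* and *Gal*, background 1.26%) and 0 lower (background 1.60%). As a description, the median log2 fold change of these 4 was 0.82, and that of all genes in the fit -0.0044.

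**Figure D3:**
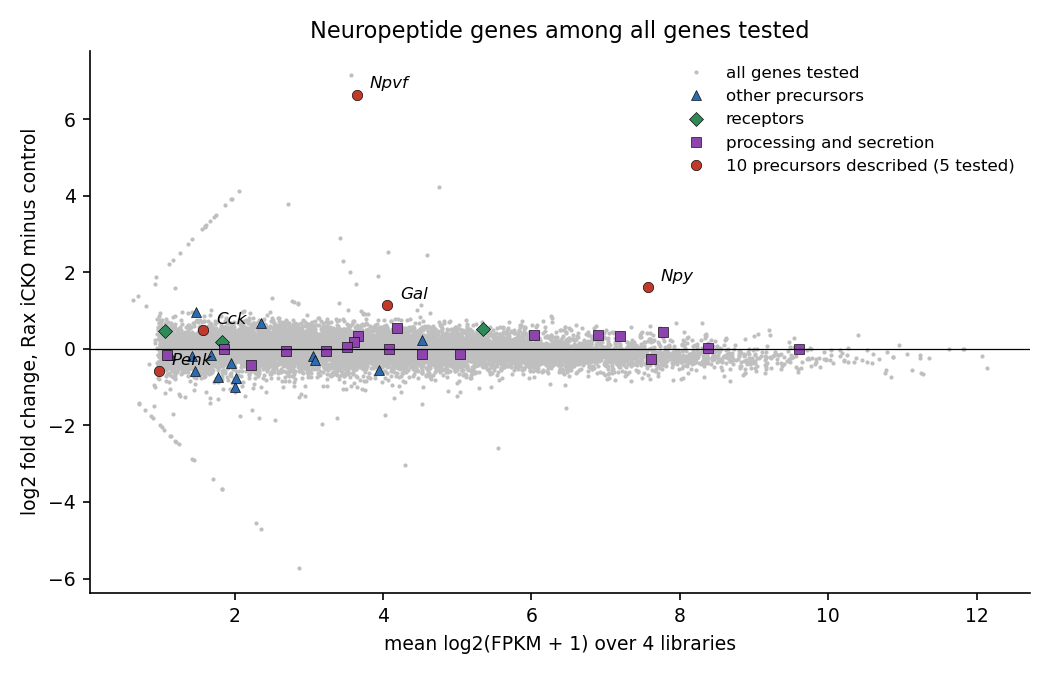
Log2 fold change, *Rax* iCKO minus control on the log2(FPKM + 1) scale, against the mean log2(FPKM + 1) over the 4 libraries. Each point is 1 of the 12363 genes tested, in grey, with the 5 tested members in red and the other precursors, receptors and processing genes in blue, green and purple. *Npvf* lies at 6.64, *Npy* at 1.61, *Gal* at 1.15, *Cck* at 0.50 and *Penk* at -0.58.

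*Rax*, the targeted gene, was at 189 and 181 FPKM in controls and at 111 and 98.4 FPKM in the *Rax* iCKO libraries, a ratio of 0.566 (log2 fold change -0.82 ± 0.21 SE, adjusted limma p 0.9999), so RNA counted under *Rax* remained. *Xist*, expressed from the inactive X chromosome, read 24.5 and 21.2 FPKM in the controls and 0.0119 and 0.00605 FPKM in the *Rax* iCKO libraries, and Y-linked genes were above 0 only in *Rax* iCKO mouse 7983, so the groups also differed in sex-linked RNA. Müller glial markers were abundant in all libraries, with sums of 12676 to 16688 FPKM in controls and 11334 to 11372 FPKM in *Rax* iCKO cells, and 13 of 14 had a log2 fold change below 0. All 10 bipolar cell markers were detected, with sums of 4349 to 10676 and 5915 to 8839 FPKM, and 9 of 10 had a log2 fold change above 0. All 10 rod markers had a log2 fold change below 0, with sums of 2141 to 2147 and 1320 to 1505 FPKM. All 16 amacrine cell markers were above 0 in at least 1 library, and *Slc32a1*, *Slc18a3*, *Chat*, *Th* and *Tfap2a* were at 0 in others. Ganglion cell markers summed to 232 to 607 and 368 to 513 FPKM, nearly all of it *Isl1*, a gene that bipolar and amacrine cells also use (220 and 591 against 356 and 506 FPKM), with *Pou4f1*, *Pou4f3* and *Opn4* at 0. Of the 5 ganglion cell markers in the fit, 1 had a log2 fold change above 0 and 4 below. *Rbpms*, 1 of these 4, was lower in both *Rax* iCKO libraries, with 3.66 and 3.13 against 2.14 and 1.11 FPKM. Markers of pigment epithelium summed to 4.45 to 7.02 and 7.12 to 9.38 FPKM, and those of horizontal cells, cones, microglia, astrocytes and endothelium overlapped between groups or were lower in *Rax* iCKO cells.

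Amacrine cells are the known retinal source of several of these peptides, so their markers were set beside *Npvf*, *Vip*, *Npy* and *Gal*. *Gad1*, which makes GABA, read 2.75 and 2.31 FPKM in the controls and 4.96 and 0.991 FPKM in *Rax* iCKO mice 7983 and 3914. Of the 7 amacrine cell markers in the fit, 1 had a log2 fold change above 0 and 6 below, with a median of -0.10. The one above, *Meis2*, a transcription factor of amacrine cells, was higher in both *Rax* iCKO libraries, with 6.89 and 7.44 FPKM against 10.96 and 14.7 FPKM. *C1ql1*, a secreted protein, was lower in both, with 3.91 and 4.43 FPKM against 3.85 and 0.308 FPKM. *Trpm1*, the channel of ON bipolar cells, was also higher, with 178 and 213 FPKM against 293 and 327 FPKM. The part of other cell types in the higher levels of *Npvf*, *Npy* and *Gal* was not tested, and the part of the difference in sex-linked RNA cannot be told apart from that of the genotype.

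*Npy* and *Npvf* lie on chromosome 6 in GRCm38.p6, *Npy* at chr6:49822710-49829507 (plus strand) and *Npvf* at chr6:50650672-50654445 (minus strand), 821 kb apart. The stretch between them was looked at after the values had been seen. Of the 6 listed genes in it 5 were above 0 and 3 were in the fit (*Mpp6*, *Osbpl3* and *Cycs*), with log2 fold changes from -0.24 to 0.34. None of the 6 was over 2-fold higher without overlap (background 2.68%), and 1 was lower (*5430402O13Rik*, averaging under 1 FPKM, background 4.07%). In the 2000 kb on either side 71 genes were listed and 29 were in the fit, with log2 fold changes from -0.42 to 0.58 and 0 over 2-fold higher, and 2 of the 43 genes above 0 were lower (*Gimap8* and *Gimap6*). *Cycs*, the cytochrome c gene 84.1 kb from *Npvf*, read 51.9 and 87.5 FPKM in the controls and 54.8 and 58.9 FPKM in the *Rax* iCKO libraries. *Vip* lies on another chromosome, at chr10:5639193-5647617 (plus strand), and *Gal* at chr19:3409915-3414544 (minus). The neighbour of *Vip* at 88.5 kb, *Syne1*, read 4.58 and 6.46 FPKM in controls and 8.10 and 11.01 FPKM in *Rax* iCKO cells (log2 fold change 0.70), and *Myct1*, at 32.4 kb, was at 0 in all 4. None of the 6 nearest protein-coding genes of *Vip* passed 2-fold.

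**Figure D4:**
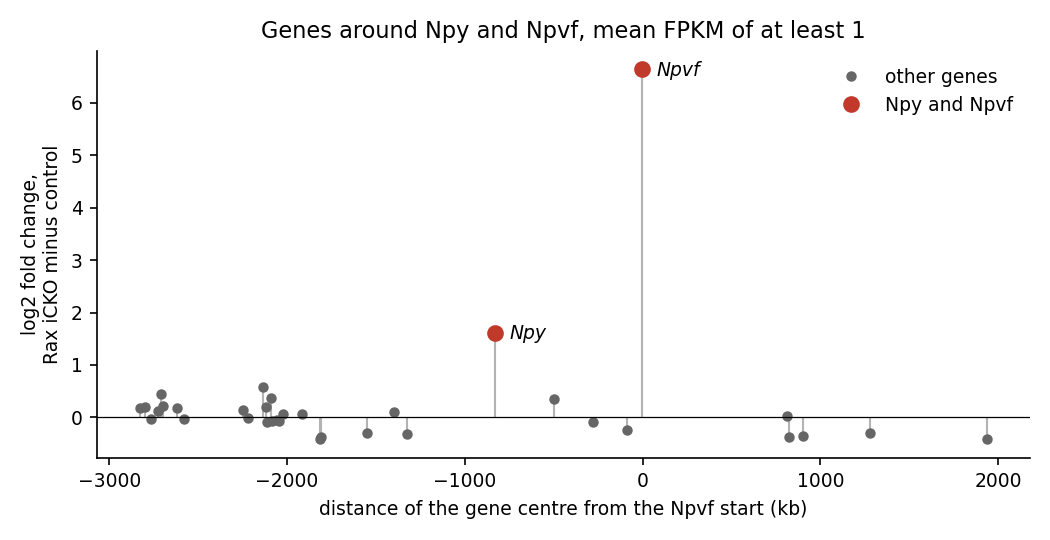
Log2 fold change of the genes in the fit around *Npvf* and *Npy*, *Rax* iCKO minus control on the log2(FPKM + 1) scale, against the distance of each gene's centre from the start of *Npvf* in kb, with negative distances towards lower coordinates. *Npvf* at 6.64 and *Npy* at 1.61 stand above the other genes in the fit, which run from -0.42 to 0.58.

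The genes whose pattern over the 4 libraries was most like that of *Npvf* were *BC030499*, *Ypel4*, *Fam181b*, *Zfp389* and *Lypd1*. Pearson's r of log2(FPKM + 1) was 0.9996, 0.9936, 0.9919, 0.9874 and 0.9844, over 4 libraries and among 1787 genes averaging 1 FPKM or more with a range of at least 1 on that scale. *BC030499*, for example, read 8.04 and 8.42 FPKM in the controls and 15.7 and 19.1 FPKM in the *Rax* iCKO libraries. With 4 points these coefficients only describe values in the same libraries. *Npy* stood at place 51 (r = 0.8826) and *Gal* at place 61 (r = 0.8492).

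The other neuropeptide precursors were set beside the members. Of 57 listed, 37 were above 0 and 14 were in the fit, with 3 log2 fold changes above 0 and 11 below, and a median of -0.24. None had an adjusted limma p under 0.05, and at an unadjusted p under 0.05 there were 2 higher (*Nmb* and *Cartpt*, against 1.26% of all genes tested) and 3 lower (*Ghrh*, *Calca* and *Spx*, against 1.60%). *Nmb*, the neuromedin B gene, was the one over 2-fold higher without overlap at an average of 1 FPKM or more (background 0.599%), with 1.12 and 0.887 FPKM in the controls and 3.24 and 2.63 FPKM in the *Rax* iCKO libraries (log2 fold change 0.97 ± 0.29 SE, adjusted limma p 0.9999). Of the 14, 3 were lower in this way (background 0.704%). *Ghrh*, which encodes growth hormone-releasing hormone, read 4.23 and 5.12 against 1.68 and 2.04 FPKM. *Calca*, the gene of calcitonin and CGRP, read 5.03 and 3.67 against 1.88 and 2.38 FPKM, and *Spx*, the spexin gene, 3.70 and 3.15 against 1.90 and 1.45 FPKM. All 3 had an adjusted limma p of 0.9999, with log2 fold changes from -0.99 to -0.73. With genes of any level above 0, 2 were higher (*Nmb* and *Uts2*, background 2.68%) and 4 lower (*Tac4* beside these 3, background 4.07%). With 1 mouse left out these counts ran from 2 (without control mouse 7984) to 8 (without *Rax* iCKO mouse 7983) and from 3 (without *Rax* iCKO mouse 3914) to 12 (without control mouse 7984). Non-overlap is easier to reach with 1 library in a group, so these backgrounds do not apply to them.

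Of the most abundant of these precursors, *Pdyn* was lower and *Cartpt* higher in both *Rax* iCKO libraries, neither past 2-fold, and the others overlapped. *Nucb2*, whose product is cut to nesfatin, ran from 13.5 to 30.3 FPKM in controls and from 19.0 to 30.3 FPKM in *Rax* iCKO cells. *Pdyn*, the prodynorphin gene, read 24.7 and 12.5 against 11.6 and 12.1 FPKM, with a log2 fold change of -0.54. *Cartpt*, the CART peptide gene, was at 3.05 FPKM in both controls and at 4.67 and 6.51 FPKM in the *Rax* iCKO libraries, a ratio of 1.83. *Npff*, whose peptides are like those of *Npvf* in their amidated RF end, read 3.19 and 3.602 against 3.02 and 1.88 FPKM. The highest value of any of the 57 in a *Rax* iCKO library was 30.3 FPKM, that of *Nucb2*, below both *Npvf* values.

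**Figure D5:**
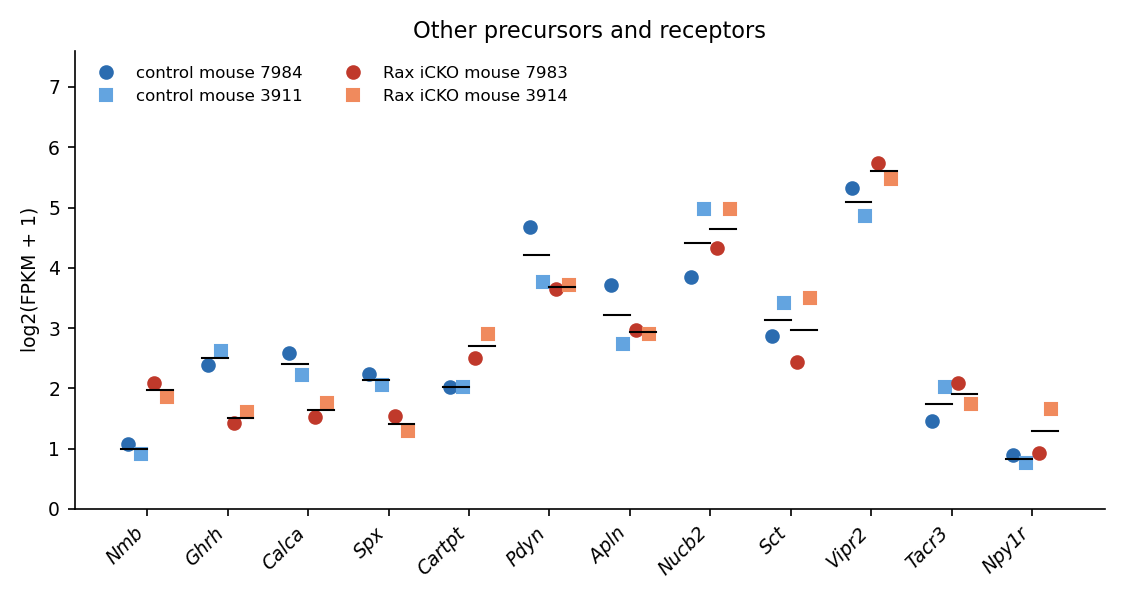
Level of 9 other precursors and 3 receptors in each of the 4 libraries, on a log2(FPKM + 1) axis, with controls in blue, *Rax* iCKO libraries in red and orange, and black lines at the group means. *Nmb* is higher and *Ghrh*, *Calca* and *Spx* are lower in both *Rax* iCKO libraries, and *Vipr2*, from 27.9 to 52.4 FPKM, is the most abundant gene shown.

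The receptors of these peptides were mostly low. Of 29 listed, 21 were above 0 and 3 were in the fit (*Vipr2*, *Tacr3* and *Npy1r*), all with a log2 fold change above 0, though *Npy1r* passed the filter only through the *Rax* iCKO libraries. None of the 3 had an unadjusted limma p under 0.05 (background 1.26% higher and 1.60% lower). Over 2-fold without overlap were *Crhr2*, higher, and *Sstr2*, lower (background 2.68% and 4.07%), both averaging under 1 FPKM. With 1 mouse left out these counts ran from 2 (without control mouse 3911) to 5 (without either *Rax* iCKO mouse) higher, and from 1 (without *Rax* iCKO mouse 3914) to 3 (without control mouse 7984) lower. The backgrounds do not apply to these counts either. *Vipr2*, a receptor of VIP and PACAP, was the most abundant, with 38.8 and 27.9 FPKM in the controls and 52.4 and 43.6 FPKM in the *Rax* iCKO libraries. It was higher in both, at a ratio of 1.44 and an adjusted limma p of 0.9999 (log2 fold change 0.52 ± 0.25 SE). *Tacr3*, the neurokinin B receptor, overlapped, and *Npy1r*, a receptor of neuropeptide Y, ranged from 0.691 to 0.867 FPKM in controls and from 0.905 to 2.14 FPKM in *Rax* iCKO cells. Of the receptors of the *Npvf* peptides, *Npffr1* was above 0 only in *Rax* iCKO mouse 3914, at 0.388 FPKM, and *Npffr2* was at 0 in all 4 libraries.

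The genes that process and store peptides ranged from undetected to abundant, with differences on both sides of 0. Of 24 listed, 23 were above 0 (all but *Anpep*, a peptidase) and 19 were in the fit, with 9 log2 fold changes above 0, 10 below and a median of -0.0067. None had an adjusted limma p under 0.05 (background 0.00809% higher and 0.0162% lower) or an unadjusted one (background 1.26% and 1.60%). *Cpe*, carboxypeptidase E, which trims the ends left by the convertases, ran from 673 to 903 FPKM in controls and from 697 to 854 FPKM in *Rax* iCKO cells. *Scg2*, secretogranin II of the granule core, read 143 and 246 against 206 and 309 FPKM. The others of the 5 most abundant were *Qpct*, *Scg5* and *Chga*, and of these *Chga*, chromogranin A, was higher in both *Rax* iCKO libraries, with 110 and 152 against 158 and 172 FPKM and a log2 fold change of 0.35. *Pcsk1*, a convertase of many neuropeptide precursors, was at 0 in the controls and at 0.0457 and 0.0463 FPKM in the *Rax* iCKO libraries, steps that can stand for as little as 1 read each. *Vgf*, a granule protein and peptide precursor, lay over 2-fold the other way, with 0.234 and 0.229 against 0 and 0.0912 FPKM. Over 2-fold without overlap there were thus 1 higher (background 2.68%) and 1 lower (background 4.07%), both averaging under 1 FPKM. With 1 mouse left out, where non-overlap is easier to reach, these counts were 1 to 2 and 1 to 3. *Pcsk2*, the other neuroendocrine convertase, read 8.67 and 12.1 against 11.6 and 15.0 FPKM. *Pam*, which amidates peptides such as those of *Npvf*, *Npy* and *Gal*, read 35.1 and 31.9 against 32.5 and 28.0 FPKM.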

How the data were processed

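RNA was taken from mTFP-positive cells sorted from 4 mice, 2 control and 2 *Rax* iCKO. The labels name the miRNeasy Micro and SMART-Seq HT kits, whereas TRIzol LS is the reagent in the paper's methods. Single-end reads were mapped to mm10 by the authors, who deposited FPKM by gene symbol, fragments scaled to exon length and to the mapped fragments. The submitters' processing notes name TopHat2 2.1.1, Bowtie2 2.2.8, SAMtools 0.1.18 and Cuffdiff 2.2.1, and the paper's methods give other versions of the first 3. The strand setting and the annotation are not given in the sources used here, so reads of overlapping genes and close paralogs may be split uncertainly.

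FPKM as deposited were used. Groups followed the genotype labels. The main test was limma 3.58.1 (R 4.3.3, trended eBayes) on log2(FPKM + 1), with a pseudocount of 1, for the 12363 genes averaging 1 FPKM or more. It was adjusted by Benjamini-Hochberg and tested on simulated data. On this scale the change of low genes is understated. The p-values measure only the spread between these libraries, whose mice are given by number alone.

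Depth was worked out from the steps between low FPKM values. Of 2310 genes under 0.5 FPKM, 94.5% could be written as whole multiples of a common step, of at most 20 reads, within a tolerance of 2%. Any step that fitted was accepted, so this share does not test the depth. The libraries held an estimated 9270000 to 12710000 mapped reads. The FPKM of a library summed to between 492728 and 616277. No count test was run on these estimates.

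The members and lists were chosen with earlier results of these data known. Named genes were drawn from all members, per other list the 5 most abundant and those beyond 2-fold without overlap that averaged 1 FPKM or more, the 3 protein-coding neighbours on each side of *Npvf* and *Vip*, the 5 genes most like *Npvf*, and label checks. Not every gene of these sets is named. Other named genes (*Npff*, *Npffr1*, *Npffr2*, *Uts2*, *Tac4*, *Crhr2*, *Sstr2*, *Pcsk1*, *Vgf*, *Pcsk2*, *Pam*, further genes around *Npy* and *Npvf*, and the individual cell type markers) were picked with their values in view. The alternatives left out each mouse, blocked by run of mouse numbers, used a pseudocount of 0.1, dropped the filter or raised it to 5 FPKM, normalized by quantiles or by medians, or dropped the variance trend. Promoters are from RefSeq GRCm38.p6, where 23123 of 24322 symbols were matched.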

Additional observations from a re-analysis of the deposited data

How the results depend on the processing

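The count of members with an adjusted limma p under 0.05 includes *Npvf*, which was chosen for its difference, so nothing is read from its part in the count. The count was 0 as the data were first tested, and also with pseudocount 0.1, no filter, a filter at 5 FPKM and no variance trend. It was 1 with quantile normalization, where 2 genes were called higher and 2 lower over all genes. It was also 1 with equal medians, where these were 3 and 3, and *Npvf* was the member both times. The fits with a mouse left out hold 1 library in a group, so only their effect sizes are given. Of the other members, *Npy* (adjusted limma p 6.9e-05) and *Gal* (0.0223) passed only with a replicate block by the run of mouse numbers, where the count was 3. Without the block their adjusted p was 0.9999 as first tested, and under the other alternatives it was lowest without control mouse 7984, at 0.334 for *Npy* and 0.834 for *Gal*. The same-run libraries deviated together (r = 0.503), but with 2 pairs and no shared litter in the labels they share only a run of numbers. Over all genes the block took the calls from 1 higher and 2 lower to 24 and 47.

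The count of members lower without overlap was 0 with 1 added to each mean FPKM, and 1 to 2 when a mouse was left out. With 1 added, 3 members were higher (*Npvf*, *Npy* and *Gal*). No gene of the other 3 lists then passed 2-fold without overlap, so *Nmb*, *Ghrh*, *Calca* and *Spx* all lost that call. The log2 fold change of *Npvf* was 8.90 with pseudocount 0.1 and 5.77 to 7.52 with a mouse left out. With a mouse left out, the ranges were 1.35 to 1.87 for *Npy*, 0.83 to 1.46 for *Gal*, 0.24 to 0.76 for *Cck* and -0.92 to -0.50 for *Penk*. None of these changes reversed its direction under these alternatives, and no gene of the other 3 lists was called under any alternative in limma. The cause of these shifts was not tested. With 2 mice a group and a few reads behind *Vip*, *Tac1* and *Adcyap1*, differences in these genes were not measurable at this depth.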
